A study of Macaca mulatta with 32 samples.

Results

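The circRNAs described here come from 6 host genes that encode Eph receptors: EPHA3, EPHA4, EPHA5, EPHA6, EPHA7 and EPHB1. All circRNAs that the deposited table of rhesus macaque brain assigns to one of these symbols were taken, 38 by the symbol column and 3 of EPHA6 by its gene ID, because the symbol column leaves that ID unnamed. They made 41 of 52828 circRNAs and 1120 back-splice reads over all libraries, or 156 per 1000000 back-splice reads. The animals were untreated, group-housed macaques of 10 or 20 years, and RNA of 2 animals of one sex and age was combined into each of 4 pools: 10-year females (10F), 10-year males (10M), 20-year females (20F) and 20-year males (20M). Each pool was sequenced once in each of 8 regions, after ribosomal RNA was removed and linear RNA was digested with RNase R. The regions were prefrontal (PFC), posterior cingulate (PCC), temporal (TC), parietal (PC) and occipital cortex (OC), the CA1 field and dentate gyrus (DG) of the hippocampus, and cerebellar cortex (CB). The 32 libraries therefore rest on 8 animals, and 16 libraries of one age on 2 pools.

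Eph receptors are the largest family of receptor tyrosine kinases, and they bind ephrins that are anchored in the membrane of a neighbouring cell. A-class receptors mainly bind ephrins held by a lipid anchor, B-class receptors mainly bind ephrins that span the membrane, and both partners can signal into their own cell. In the developing brain these contacts steer axons and sort cells, and in the adult they act at dendritic spines and synapses. A circRNA forms when the end of an exon is joined back to the start of the same or an earlier exon, and reads across that back-splice junction identify it. In bulk tissue, a smaller number of cells of a type and less RNA in each cell cannot be told apart.

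One member had primers listed by the study, and they are shown because they mark the junction on which the comparison of ages turned. This EPHA5 circRNA spans chromosome 5, 63978069 to 63993895, on the plus strand, in the coordinates of the deposited table, whose genome build is not given in the sources used here. Its primers, 19 and 22 bases long, are printed 5′ to 3′ with no part marked.
EPHA5 forward primer: gcagtggttatcggcttcc
EPHA5 reverse primer: tactccaggatgattccattgg

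The 6 genes made very different numbers of circRNAs. EPHA5 had 16 circRNAs and 455 reads, EPHA7 had 6 and 318, EPHA3 had 8 and 164, EPHA4 had 3 and 68, EPHA6 had 3 and 64, and EPHB1 had 5 and 51. Reads at a junction do not scale with transcript length, but the totals draw on libraries of very different depth, and CA1_20M alone gave 88 of the 318 EPHA7 reads. By mean TPM over the 32 libraries the order was EPHA5 (17.3), EPHA7 (10.8), EPHA3 (5.16), EPHA6 (2.90), EPHA4 (2.14) and EPHB1 (2.13), with EPHA6 above EPHA4. EPHA5 alone gave 40.6% of the reads, and EPHA7 gave 28.4%.

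Most of the isoforms were rare. Of the 41, 25 (61.0%) were found in a single library, against 55.1% in the whole table, and the median was 12 reads, against 14. The study's filter for low and sporadic expression kept 10 of them (24.4%, against 32.3% of the whole table) and left out 31. The 10 held 805 of the 1120 reads. The kept circRNAs were 4 of EPHA5, 2 of EPHA7, 2 of EPHA3, and 1 each of EPHA4 and EPHA6, and no circRNA of EPHB1 passed. Of the 10, 6 passed only through their total of at least 30 reads: the EPHA4 and EPHA6 circles, 3 of EPHA5 and 1 of EPHA7. How often this held among all kept circRNAs was not counted.

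The circles of these genes covered long stretches. Joined ends lay a median of 14258 bases apart, against 6857.5 in the whole table, and the span ran from 336 to 160668 bases. The table types 35 of the 41 (85.4%) as exonic, against 65.0% of all circRNAs, and 6 as intronic. An end was shared with another circRNA of the same gene in 27 of the 41 (65.9%), a smaller share than the 77.7% over all host genes with more than 1 circRNA.

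An end was shared by 14 of the 16 isoforms of EPHA5 and by 6 of the 8 of EPHA3. A gene with more circRNAs has more chances to share an end, and genes with a like number were not compared. The junction start at 63993790 was used by 3 EPHA5 circRNAs, and the end at 63993895 was used by 2 others, so that an interval of 106 bases lies between them, both ends counted. In EPHA3, the start at 13625273 on chromosome 2 was joined to 4 different ends, and no library held more than 1 of these circles. Those that ended at 13637424, 13649851 and 13647371 were each found in 1 library, with 15, 12 and 2 reads, so little overlap could be seen. The EPHA3 circRNA with the most reads lay apart from these, at 13438842 to 13439502, and spanned 661 bases. EPHA5 also had a compact circle of 336 bases (63908665 to 63909000), which had 7 reads in PFC_20F alone. Intervals of exactly 336 and 156 bases lay between the ends of different circRNAs of EPHB1 (152628766 to 152629101 and 152656390 to 152656545 on chromosome 2, minus strand), and EPHA5 had an interval of 156 bases as well (64071080 to 64071235).

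**Figure D1:**
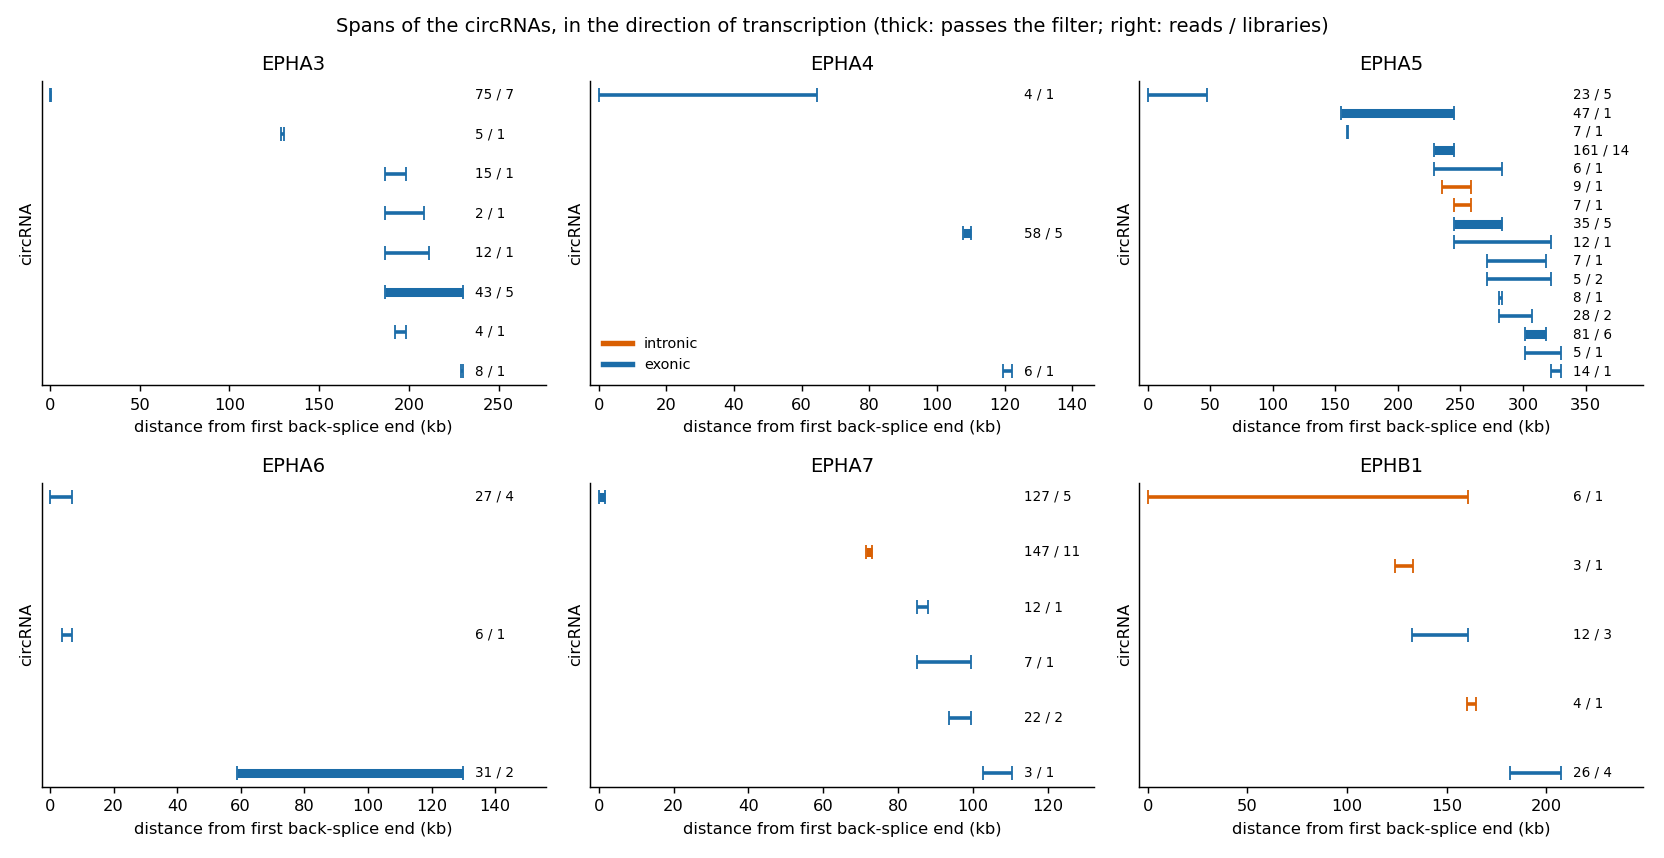
Each line is a circRNA drawn from its first to its last base, in kilobases from the outermost back-splice end of its gene and in the direction of transcription. Blue lines are exonic and orange lines intronic, thick lines passed the filter, and the numbers at the right are reads and libraries. Many of the 16 circRNAs of EPHA5 overlap, and the 10 that passed the filter include both long and compact circles.

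The reads behind these values were few. A library held 18813 to 894932 back-splice reads over all circRNAs, with a median of 179118, and a median of 26 and at most 186 reads of the 6 genes. The table gives TPM, in which 1 read was worth between 0.288 and 18.7 TPM depending on the library, and it lists nothing below 2 reads, so that a 0 stands for fewer than 2 reads. Of the 192 gene-by-library values, 71 were above 0. These counts carry at least counting error, and amplified copies, which cannot be told from separate molecules, can add to it.

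No read of any of the 6 genes was listed in 4 libraries: PCC_10M, PCC_20F, CA1_20F and CB_10F. CA1_20F, PCC_10M and CB_10F were shallow, and at the rate of the other libraries they would have held 5.87, 12.7 and 2.95 reads. PCC_20F was the deepest library, with 894932 back-splice reads, and would have held 160 reads at that rate. It is 1 of 5 libraries (with PFC_20F, PC_10M, CA1_20M and DG_20M) in which over 95% of the sequenced reads passed as clean. The part of this difference in the values of the 6 genes was not tested; leaving out these 5 libraries changed no count of called circRNAs or genes.

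The region labels were checked with circRNAs of marker genes. Of 12 cerebellar marker genes, 7 had a circRNA, and their summed level was 131 to 257 TPM in the 4 CB libraries and at most 77.9 TPM in any other. GRM4 was among the genes found, and PCP2, CALB1, CBLN1, CBLN3 and ZIC2 had no circRNA. Of 7 forebrain excitatory markers, 4 had a circRNA, at 24.2 to 200.2 TPM in neocortex and at most 4.35 TPM in CB. PROX1, the marker of dentate granule cells, had none, so DG could not be checked.

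**Figure D2:**
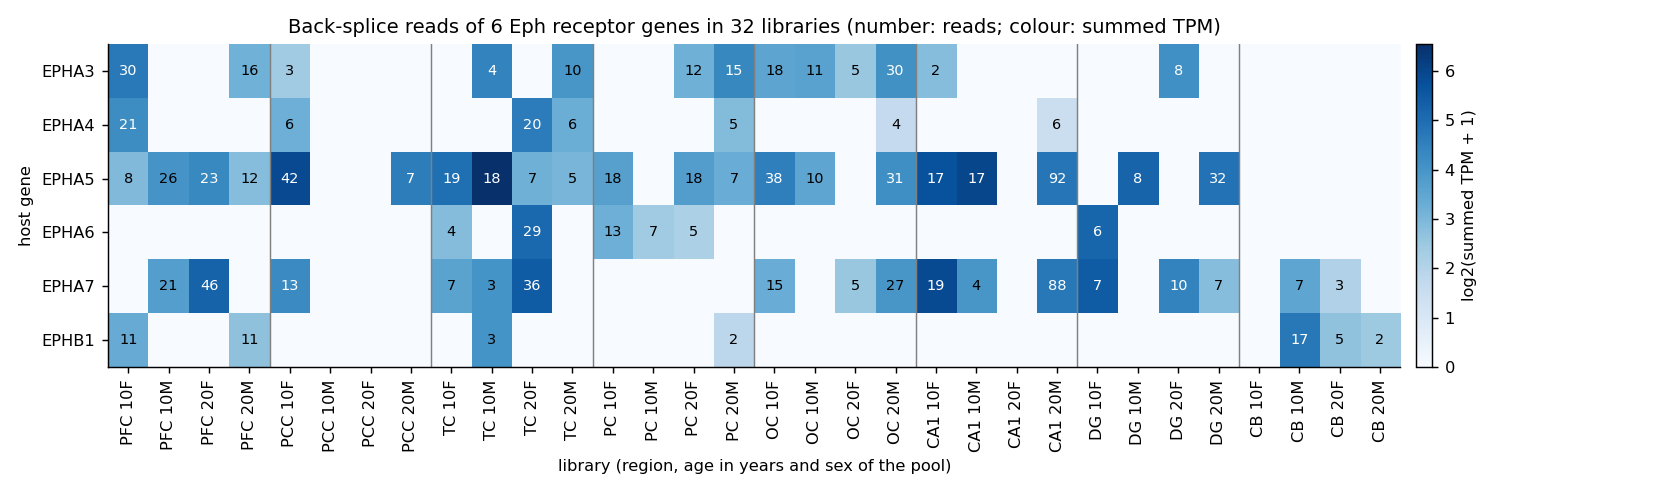
Rows are the 6 host genes and columns the 32 libraries, ordered by region and pool; the colour is log2 of the summed TPM plus 1 and the number the back-splice reads. EPHA5 and EPHA7 fill most columns outside CB, and EPHB1 holds the largest number in each of the 3 CB libraries that have any read.

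Whether a region differed from the other 7 was tested with limma, on log2 of the TPM plus 2.455, for every kept circRNA and for the summed level of every host gene with a kept circRNA. None of the 10 kept circRNAs and none of the 5 testable genes passed an adjusted p of 0.05 in any region. Among all kept circRNAs the share that passed was 2.67% for CB, 0.387% for PC, 0.217% for TC, 0.199% each for OC and DG, 0.164% for PFC, 0.0997% for PCC and 0.088% for CA1. Among host genes it was 5.45% for CB, 0.973% for DG, 0.243% for TC, 0.223% for PFC, 0.203% for CA1, 0.0608% each for PC and PCC and 0.0203% for OC. Over the regions, the division, age, sex and their interaction, 8 of 120 limma tests of the circRNAs and 4 of 60 of the genes had an unadjusted p under 0.05 (6.67% of each), against 7.18% of the tests of all kept circRNAs and 8.50% of those of all host genes. The values below therefore describe where reads were found.

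EPHA5, an A-class receptor of forebrain neurons, was the most widely found, in 21 of 32 libraries. It was listed in all 4 libraries of PFC (6.05 to 18.75 TPM) and TC (7.25 to 92.6 TPM), in 3 of 4 in PC, OC and CA1, in 2 of 4 in PCC and DG, and in none of CB. The mean summed level was 35.0 ± 27.7 TPM in CA1 (SD of 4 libraries), 34.5 ± 40.1 TPM in TC, 20.5 ± 27.9 TPM in PCC, 16.1 ± 18.9 TPM in DG, 12.4 ± 9.63 TPM in OC, 11.6 ± 6.28 TPM in PFC and 8.26 ± 5.71 TPM in PC. No neighbours in this order from CA1 to PC differed by more than their spread. The highest single value, 92.6 TPM in TC_10M, stood on 18 reads, whereas the 92 reads of CA1_20M amounted to 26.5 TPM.

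The EPHA5 isoforms had different sets of libraries, which partly overlapped. The circRNA with the listed primers had the most reads, 161 in 14 libraries, and no library held over 13.0% of them. The circle 64050206 to 64067276 had 81 reads in 6 libraries, of which 32 came from DG_20M. Both were found in PFC_20M, PC_20F and OC_10F. The long circle 63903523 to 63993895 had 47 reads, all in CA1_20M, and passed the filter only through its total. CA1_20M also held the circRNA with the listed primers. The first circle of the gene, 63748928 to 63796268, did not pass the filter and is named after its values were seen: it was found in TC_10M (30.9 TPM), TC_20F (8.26 TPM) and TC_20M (4.35 TPM), and elsewhere in PC_10F (3.24 TPM) and PFC_10M (1.15 TPM). When all 52828 circRNAs were entered without the filter, it was higher in TC by 1.78 ± 0.313 on the log2 scale (SE; limma adjusted p = 0.0151), where 0.0416% of all circRNAs passed in that direction.

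EPHA7, a receptor known for repelling axons and for a short form without the kinase domain, was found in 17 libraries. The mean was 24.4 ± 24.6 TPM in CA1, 17.2 ± 18.0 TPM in TC, 17.2 ± 18.7 TPM in DG, 12.4 ± 17.7 TPM in PFC, 7.05 ± 6.19 TPM in OC, 4.57 ± 9.14 TPM in PCC and 3.44 ± 4.96 TPM in CB (SD of 4 libraries each). It was listed at 0 in all 4 PC libraries, although PC had 1300778 back-splice reads, the most of any region. The limma difference of PC was −1.77 ± 0.788 on the log2 scale (SE), with an adjusted p of 0.489. For CA1, an exact permutation test over the 35960 choices of 4 of 32 libraries gave p = 0.0485 on the summed TPM, and the limma difference was 1.35 ± 0.788 (SE, adjusted p = 0.734). Leaving out single libraries, the exact p was 0.05 or over in 23 of 32 cases, with the highest value, 0.660, without CA1_10F.

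Its 2 main circRNAs were found in 11 and 5 libraries. The intronic circle 89202683 to 89204183 on chromosome 4 (minus strand) had 147 reads in 11 libraries and was the only kept member with a read in CB, 7 reads in CB_10M. The exonic circle 89273838 to 89275557 had 127 reads in 5 libraries, of which CA1_20M held 64 and PFC_20F 46. Both belong to the 5 libraries with over 95% clean reads. CA1_20M was the only library that held both circles. With so few libraries each, little overlap could be seen, and it was not set against that of other pairs of circRNAs.

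EPHA3, another A-class receptor, was found in 13 libraries, and OC was the only region in which all 4 libraries had it (10.64 TPM in OC_10F, 11.39 TPM in OC_10M, 4.75 TPM in OC_20F and 16.19 TPM in OC_20M). The mean was 10.7 ± 4.69 TPM in OC, 8.77 ± 10.4 TPM in TC, 8.22 ± 11.7 TPM in PFC, 6.86 ± 9.08 TPM in PC, 4.11 ± 8.22 TPM in DG, 1.52 ± 3.04 TPM in CA1 and 1.05 ± 2.11 TPM in PCC (SD of 4 libraries each), and it was listed at 0 in CB. These neighbours overlapped within their spread. For OC the exact permutation p was 0.0731 and the limma difference 1.52 ± 0.651 on the log2 scale (SE, adjusted p = 0.994).

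The compact EPHA3 circle of 661 bases was found in 7 libraries, all of them neocortical. Its level was 8.87, 11.39 and 14.03 TPM in OC_10F, OC_10M and OC_20M, 20.58 and 14.49 TPM in TC_10M and TC_20M, 4.22 TPM in PCC_10F and 3.02 TPM in PFC_20M. It was listed at 0 in OC_20F, TC_10F and TC_20F, so the values of OC and TC overlapped those of PCC and PFC; where it was found, the OC and TC values were the higher ones. The limma difference was 1.55 ± 0.448 for OC (SE, adjusted p = 0.264) and 1.15 ± 0.448 for TC (adjusted p = 0.629). The exact permutation p for OC was 0.0286 on TPM and 0.00859 on log2 values, and over all kept circRNAs 0.452% were under 0.01 on TPM and 0.804% were under 0.01 and higher in OC on log2 values. Of the 75 reads of this circle, 52 were in OC, and it passed the filter through its OC and TC libraries. The differences for OC and TC therefore draw on the regions that let it pass and are descriptions. The second EPHA3 circRNA, 13625273 to 13668986, had 22 of its 43 reads in PFC_10F and was also found in PFC_20M, OC_10F, OC_20M and DG_20F.

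EPHA4, which unlike most A-class receptors also binds B-class ephrins, was found in 7 libraries and in no library of DG or CB. Its highest mean was in TC, 8.07 ± 11.1 TPM (SD of 4 libraries), where TC_20F had 23.6 TPM and TC_20M 8.70 TPM and the 10-year libraries were at 0. Over the 4 TC and 28 other libraries the exact permutation p was 0.0272, and the limma adjusted p was 0.668. The exact p was 0.205 without TC_20F and 0.109 without TC_20M. The circle 85324229 to 85326703 on chromosome 12 (minus strand) held 85.3% of the reads of the gene and was found in PFC_10F, PCC_10F, TC_20F, PC_20M and CA1_20M. The second, 85312216 to 85314885, had 6 reads in TC_20M.

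EPHA6, an A-class receptor expressed in the nervous system, was found in 6 libraries: TC_10F, TC_20F, PC_10F, PC_10M, PC_20F and DG_10F. Its 2 main circles had most of their reads in different regions. The circle 17910723 to 17981764 on chromosome 2 was found only in TC, at 6.28 TPM in TC_10F and 31.84 TPM in TC_20F. Its limma difference for TC was 1.41 ± 0.367 (SE, adjusted p = 0.174), and without pool 20F it was 0.61. All of its 31 reads were in TC, and it passed the filter only through that total, so its difference for TC is a description. The circle 17851863 to 17858916, which did not pass the filter, was found at 8.43 TPM in PC_10F, 4.22 TPM in PC_10M and 3.46 TPM in PC_20F, and outside PC only in TC_20F, with 2 reads. Entered with all 52828 circRNAs, it was higher in PC by 1.18 ± 0.193 on the log2 scale (SE, limma adjusted p = 0.00385), where 0.310% of all circRNAs passed in that direction. In that fit 164 circRNAs were higher in PC and 3 were lower. PC had the most back-splice reads of any region, and a circle at such levels could go unlisted in a shallow library. For example, 1 read was worth 18.7 TPM in CB_10F and 6.02 TPM in DG_10F. The part of depth in this difference was not tested.

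**Figure D3:**
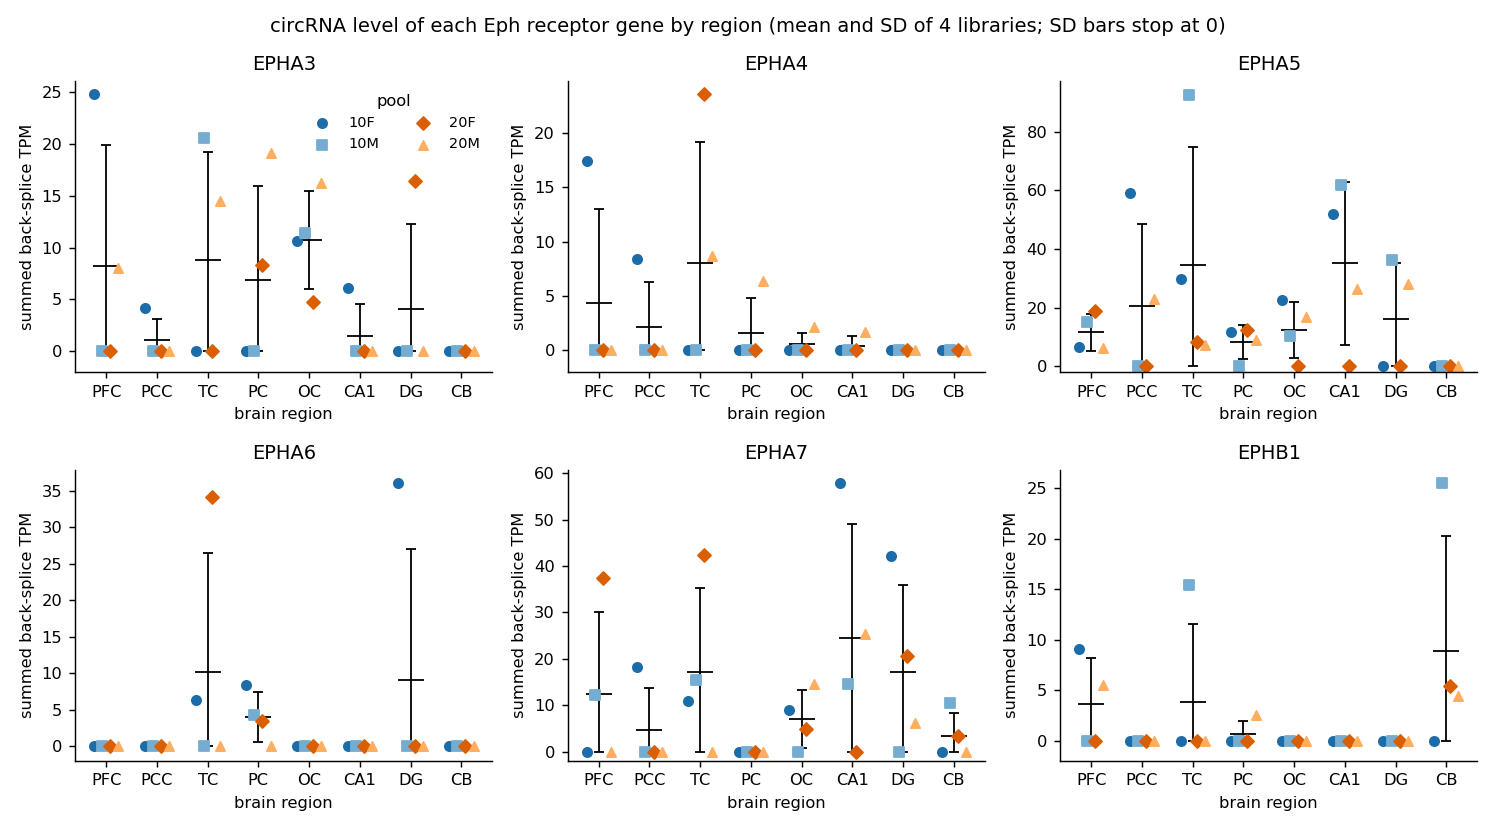
Each panel is a host gene, the vertical axis is the summed back-splice TPM and the horizontal axis the region; symbols are the 4 pools, and bars the mean and SD of 4 libraries, cut at 0. EPHA3, EPHA4, EPHA5 and EPHA6 are at 0 in all CB libraries, and EPHB1 has its highest mean, 8.84 TPM, in CB.

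Cerebellar cortex held reads of EPHA7 and EPHB1. EPHA3, EPHA4, EPHA5 and EPHA6 were listed at 0 in all 4 CB libraries. A 0 in all 4 libraries was not particular to CB: EPHA6 was also at 0 throughout PFC, PCC, OC and CA1, EPHA4 throughout DG, EPHA7 throughout PC and EPHB1 throughout PCC, OC, CA1 and DG. The 4 CB libraries held 486881 back-splice reads. At the rate of the other 28 libraries they would have held 33.2 reads of EPHA5, 11.97 of EPHA3, 4.96 of EPHA4 and 4.67 of EPHA6. For EPHA5 the limma difference was −2.40 ± 0.831 on the log2 scale (SE, adjusted p = 0.0919), and the exact permutation p on TPM was 0.0772. The exact permutation p was 0.189 for EPHA3, 0.601 for EPHA4 and 0.654 for EPHA6. A 0 in all 4 CB libraries was shared by 4.39% of the 866 host genes found in 18 to 24 libraries, a range set around the 21 libraries of EPHA5 after its value was seen. Since CB_10F had 18813 reads, the smallest number of any library, the CB values rest mainly on the other 3.

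EPHB1, a B-class receptor of axon guidance and synapse formation, was the gene with reads in most CB libraries. It had 17 reads (25.5 TPM) in CB_10M, 5 reads (5.43 TPM) in CB_20F, 2 reads (4.40 TPM) in CB_20M and none in CB_10F. Elsewhere it was found in 4 of 28 libraries, at 9.10 TPM in PFC_10F, 5.54 TPM in PFC_20M, 15.4 TPM in TC_10M and 2.55 TPM in PC_20M. The ranges of CB and the other regions overlapped. The mean was 8.84 ± 11.4 TPM in CB (SD of 4 libraries) and 1.17 ± 3.44 TPM in the 28 libraries elsewhere, and the pooled reads were 49.3 in CB against 4.05 elsewhere per 1000000 back-splice reads, a ratio of 12.2. The ratio was 5.57 without CB_10M, which leaves 7 reads in CB, and 19.8 without PFC_10F or without PFC_20M.

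The exact permutation p for EPHB1 in CB was 0.0173, and 0.138 without CB_10M. This was 1 of 3 with p under 0.05 among 48 such tests, 6 genes in 8 regions, beside EPHA4 in TC and EPHA7 in CA1, and 12.3% of all host genes passed that threshold in the same direction in CB. Because none of its circRNAs passed the filter, EPHB1 entered limma only when all 8148 host genes were fitted, where the difference was 1.39 ± 0.444 on the log2 scale (SE, adjusted p = 0.0923) and 3.41% of genes passed. The circle 152582242 to 152607777 carried most of the CB reads, with 12.02 TPM in CB_10M, 5.43 TPM in CB_20F and 4.40 TPM in CB_20M, and elsewhere was found only in PFC_20M, at 5.54 TPM. Without the filter it was higher in CB by 1.37 ± 0.253 (SE; limma adjusted p = 0.00351), where 1.09% of all circRNAs passed in that direction. The next circle, 152628766 to 152656545, had 5 reads in CB_10M, 5 in PFC_10F and 2 in PC_20M.

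The share of each gene in the reads of the 6 does not depend on how libraries were scaled. EPHB1 held 17 of 24 reads in CB_10M (70.8%, exact 95% binomial interval 48.9 to 87.4%), 5 of 8 in CB_20F (62.5%, 24.5 to 91.5%) and 2 of 2 in CB_20M (100%, 15.8 to 100%). Nothing below 2 reads is listed, so the 2 reads of CB_20M could only fall to 1 gene, and a share of 100% was fixed. The intervals count each read as a separate molecule, so they may be too narrow. In the other regions the largest share of EPHB1 was 28.2% (15.0 to 44.9%), in PFC_20M. The shares of the 3 CB libraries all lay above those of the 25 others, but the intervals of CB_20F and CB_20M overlapped that of PFC_20M. The mean share rose from 2.46 ± 6.63% elsewhere to 77.8 ± 19.7% in CB (SD, exact two-sided permutation p = 0.000305, the smallest that 3276 choices of libraries can give). This test weighs every library alike, whatever its number of reads. Without pool 20M, and so without CB_20M, the difference was 65.2 points (exact permutation p = 0.00526). The share of EPHA5 was lower in CB, at 0 in the 3 libraries against 43.2 ± 30.4% elsewhere (exact permutation p = 0.0241). That test lost its call without pool 10M (p = 0.1) or pool 20M (exact permutation p = 0.126), which leaves 2 CB libraries. The share of EPHA7 was 22.2 ± 19.7% in CB and 22.0 ± 22.5% elsewhere (exact permutation p = 0.989). These shares are parts of 1 total, so that 1 gene's rise lowers the others, and the p-values are unadjusted over 6 genes.

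**Figure D4:**
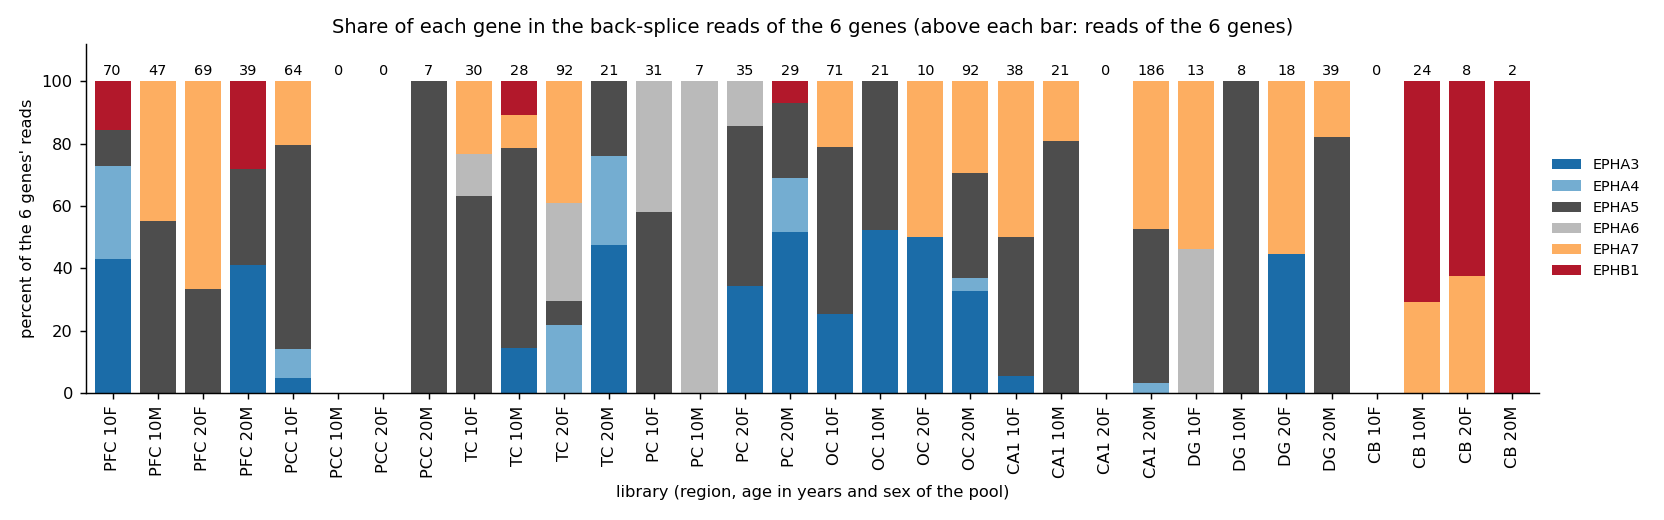
Each bar is a library and shows the percent of the 6 genes' back-splice reads that fell to each gene, with the number of reads above the bar; libraries with 0 reads have no bar. EPHB1 makes 62.5 to 100% of the bars of CB, which stand on 2 to 24 reads, and at most 28.2% of any other.

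Hippocampus was compared with the 5 neocortical regions in the same limma fit. None of the 10 circRNAs and none of the 5 genes passed, against 0.416% of all kept circRNAs and 1.89% of host genes. EPHA7 was the nearest, with 20.8 ± 20.6 TPM in hippocampus (SD of 8 libraries) and 8.25 ± 12.6 TPM in neocortex (20 libraries), a log2 difference of 1.23 ± 0.617 (SE, adjusted p = 0.393). EPHA5 had 25.6 ± 24.2 TPM in hippocampus and 17.4 ± 22.3 TPM in neocortex, and EPHA3 2.82 ± 5.90 TPM and 7.13 ± 8.20 TPM. EPHB1 was listed at 0 in all 8 hippocampal libraries. Of the 41 circRNAs, 24 (58.5%) were found only in neocortical, 6 (14.6%) only in hippocampal and 2 (4.88%) only in CB libraries, against 51.5%, 8.14% and 8.07% of all 52828 circRNAs. Of these, 18, 5 and 2 were found in a single library, which fixes that they lie in 1 division.

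Age was compared over all regions, 16 libraries of 10 years against 16 of 20 years. Of the 10 kept circRNAs, 1 had p under 0.05 in the unpaired t-test on TPM, where 2.97% of all kept circRNAs did. It was the EPHA5 circRNA with the listed primers. The study lists it among candidates of 10 years taken from these same samples, so its direction is no independent evidence.

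This EPHA5 circRNA was found in 10 of 16 libraries at 10 years and in 4 of 16 at 20 years. At 10 years its level had a lowest value of 0, a median of 7.90 and a highest value of 50.9 TPM, and at 20 years a lowest and a median of 0 and a highest of 10.4 TPM. The groups overlapped, since 6 of the 10-year libraries were at 0. The highest values at 10 years were those of CA1_10M (50.9 TPM), DG_10M (36.4 TPM), PCC_10F (29.5 TPM) and CA1_10F (27.4 TPM). At 20 years it was found in PC_20F (10.4 TPM), OC_20M (5.94 TPM), CA1_20M (5.76 TPM) and PFC_20M (3.53 TPM).

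The mean fell from 12.7 ± 15.7 TPM at 10 years to 1.60 ± 3.14 TPM at 20 years (SD, n = 16 each; t-test p = 0.00943, adjusted p = 0.698 over all kept circRNAs; permutation p = 0.00463). With region and sex as covariates, the limma difference was −1.36 ± 0.435 on the log2 scale (SE, adjusted p = 0.709). Matched by region and sex, the 10-year library was higher in 9 of 16 pairs, the 20-year library was higher in 1, and both were at 0 in 6. The 10-year libraries were the shallower ones, with a median of 128018 back-splice reads against 192168, and per 1000000 back-splice reads the circRNA had 41.0 at 10 years and 11.7 at 20 years. In a paired t-test over the 16 pairs, added after the data were seen, p was 0.0124, where 3.34% of all kept circRNAs were under 0.05. Without pool 20F the difference was −10.8 TPM (t-test p = 0.0692, exact permutation p = 0.0616) and without pool 20M −11.4 TPM (t-test p = 0.0572, exact permutation p = 0.0553), against −11.1 TPM with all pools. Each of these leaves 8 libraries at 20 years. The t-test p stayed under 0.05 without either 10-year pool, without any single region and without the 5 libraries with over 95% clean reads (0.0175).

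**Figure D5:**
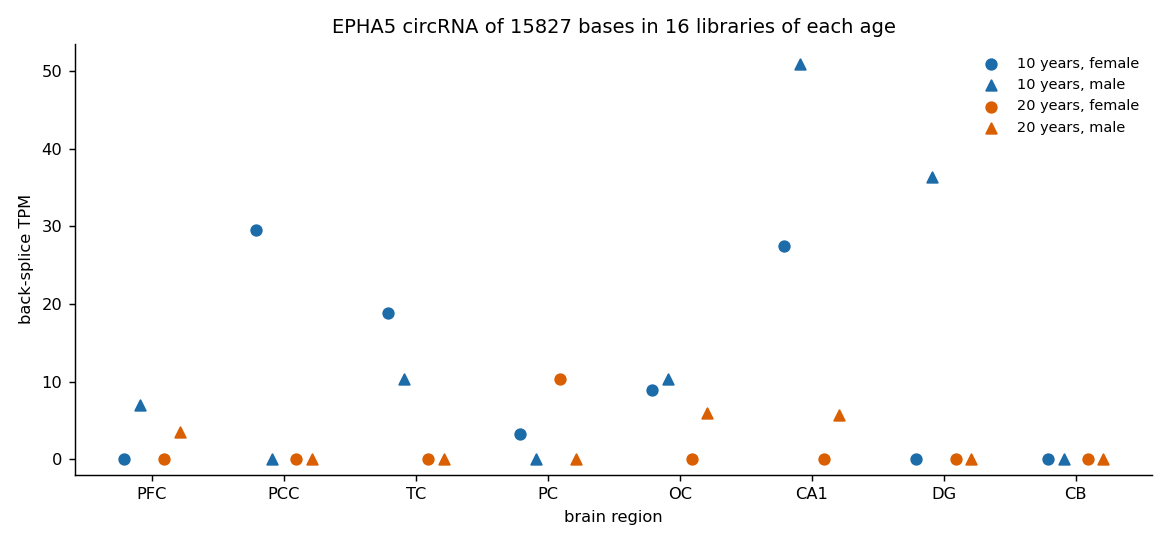
The TPM of the EPHA5 circRNA 63978069 to 63993895 is plotted by region, with 10-year libraries in blue, 20-year libraries in orange, females as circles and males as triangles. The 10-year values reach 50.9 TPM and the 20-year values 10.4 TPM, and PC is the region where a 20-year value is the highest.

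The means of the other kept EPHA5 isoforms went in both directions, and none had a t-test p under 0.05. The circle 64050206 to 64067276 was found in 5 libraries at 20 years and in 1 at 10 years (3.04 ± 7.44 TPM against 0.851 ± 3.40 TPM, t-test p = 0.293), and the circle 63993790 to 64031947 had a mean of 0.761 ± 2.33 TPM at 20 years and 4.09 ± 12.9 TPM at 10 years (t-test p = 0.318, n = 16 each). Over the 16 circRNAs of EPHA5, 10 had the higher mean at 10 years and 6 at 20 years, and over the 41 of all genes the numbers were 22 and 19. A single library held 10 of the 16 and 25 of the 41, and its age fixed their direction. These counts are therefore a description, and they were not set against all circRNAs. Summed over EPHA5, the level was 24.8 ± 28.2 TPM at 10 years and 9.75 ± 10.1 TPM at 20 years, a limma difference of −0.77 ± 0.536 (SE, adjusted p = 0.833). None of the 5 testable host genes passed for age, and of all 4933 host genes 0% did for age or sex by limma, with 314 and 330 at an unadjusted p under 0.05.

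Sex was compared the same way. No kept circRNA of the 6 genes had a t-test p under 0.05, where 2.94% of all kept circRNAs did, or a paired t-test p under 0.05, where 2.89% did. EPHA6 was found in 5 female and 1 male library, at 5.53 ± 11.8 TPM and 0.264 ± 1.05 TPM (SD, n = 16 each), a limma difference of −0.73 ± 0.352 for males minus females (SE, unadjusted p = 0.0472, adjusted p = 0.729). The compact EPHA3 circle had 3.97 ± 6.91 TPM in males and 0.818 ± 2.39 TPM in females (SD, n = 16 each; t-test p = 0.0952). EPHA7 had 6.17 ± 8.13 TPM in males and 15.4 ± 19.2 TPM in females, with a limma adjusted p of 0.882. For the age difference by sex, the smallest limma adjusted p of the 5 genes was 0.890 (EPHA5, 1.64 ± 1.04), where 0.0608% of host genes passed.

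Other genes of the Eph pathway were read from a list of ligands, receptors and intracellular partners. Among 8 ephrin genes, 1 had a circRNA: EFNB2, a membrane-spanning ephrin that binds B-class receptors and EPHA4. It had 191 reads in 9 libraries, at 4.54 ± 8.18 TPM in neocortex (SD of 20 libraries), 1.76 ± 4.99 TPM in hippocampus (8 libraries) and 1.13 ± 2.25 TPM in CB (4 libraries), and it passed in no comparison. Of 8 further receptors, EPHB2 had 204 reads in 11 libraries and EPHB4 4 reads in 1, and EPHB2 passed in no comparison.

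The intracellular partners were found far more often, and 23 of 26 had a circRNA that passed the filter. In CB, 2 of the 23 rose and 4 fell by limma (adjusted p under 0.05), against 5.45% of all host genes in either direction; the median log2 difference of the list was −0.07 and that of all genes −0.07. The genes that rose were CHN2 and TIAM1. CHN2 (beta-chimaerin, which inactivates Rac) had 67.3 ± 30.5 TPM in CB and 2.63 ± 4.82 TPM in neocortex, a log2 difference of 4.16 ± 0.509 (SE, adjusted p = 1e-06) from the other regions. TIAM1, which activates Rac, had 1102 ± 561 TPM in CB and 54.7 ± 41.8 TPM in neocortex (4.16 ± 0.773, adjusted p = 0.000575).

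Those that fell in CB were CHN1, KALRN, GRIP1 and ANKS1B. CHN1 (alpha-chimaerin, a Rac inhibitor downstream of EPHA4) was listed at 0 in all CB libraries, against 35.4 ± 20.9 TPM in neocortex and 67.8 ± 38.3 TPM in hippocampus (adjusted p = 2.58e-05 by limma). KALRN, which acts at dendritic spines, had 4.04 ± 4.81 TPM in CB and 96.6 ± 44.0 TPM in neocortex (adjusted p = 0.000732). GRIP1, a scaffold that binds glutamate receptors and ephrin-B, had 9.68 ± 6.86 TPM in CB and 89.0 ± 52.5 TPM in neocortex (adjusted p = 3.87e-05). ANKS1B, a postsynaptic scaffold protein, had 101 ± 21.2 TPM in CB and 255 ± 78.5 TPM in neocortex (adjusted p = 0.027). In hippocampus against neocortex TIAM1 was the one list gene that passed (2.34 ± 0.605, adjusted p = 0.0359). None of the 23 passed for age or sex.

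The host genes whose summed level followed each receptor most closely over the 32 libraries were taken from 1447 genes found in at least 24 libraries. For EPHA5 these were CSMD1 (Spearman rho 0.62), ROBO2, an axon guidance receptor (0.59), and DGKB (0.59). For EPHA3 they were GRIN2B (0.56), AGPS (0.47) and NRCAM (0.46), and for EPHA4 MEF2A (0.57), CAP2 (0.53) and NRCAM (0.50). For EPHA7 they were PEX5L (0.54), ASXL1 (0.51) and ACVR2A (0.50), for EPHA6 GLTSCR1L (0.54), DCBLD1 (0.52) and PPHLN1 (0.51), and for EPHB1 ABCA3 (0.62), GFM2 (0.54) and PRUNE (0.49). The libraries share animals and differ in depth, and the receptors are at 0 in many of them, so these values are descriptions.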

How the data were processed

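CircRNA libraries of 8 brain regions and 4 pools were analysed (32 libraries, 4 per region). Per the study's methods, the authors trimmed the reads with cutadapt, mapped them with BWA and called back-splice junctions with CIRI2 at 2 or more reads. The deposited values are in TPM, and within a library each is a whole number of reads times 1 constant (tolerance 0.1 read), so reads were recovered by division. edgeR was not applied to them. The genome build is not given in the sources used here. No column of another series' sample was present.

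The study's filter was applied with at least 3 reads as expressed: at least 2 libraries in each of at least 2 regions, 2 libraries in 1 region and 6 in all, or 30 reads in all. It kept 17050 circRNAs. Regions, hippocampus against neocortex and summed host genes were tested with limma 3.58.1 in R 4.3.3 on log2(TPM + 2.455), the pseudocount being the median smallest value above 0, with Benjamini-Hochberg adjustment over all features tested. A fold change on this scale understates that of low values. Age and sex of single circRNAs were tested with an unpaired two-sided t-test, which the study's methods give for this selection (its statistics section names a paired test, run as an alternative), and with 100000 permutations. Exact two-sided permutation tests covered shares and single genes. The other steps ran in Python 3.11.15 (pandas 2.3.3, SciPy 1.17.1 and NumPy 2.4.6), with figures drawn in Matplotlib 3.10.9. Scripts were tested on simulated data.

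Pools pair the libraries across regions, because libraries of a pool come from the same animals (mean correlation of deviations 0.0251 within and −0.00835 between pools), and the pool was a block in an alternative. Nothing beyond the pools separates the libraries of a group, so p-values measure the spread between these libraries. The members and the lists were chosen with earlier results of these data known. Named circRNAs are the 2 with most reads of each gene, those called in a comparison and the EPHA5 circRNA with listed primers; list genes are those called, up to 6 per comparison, and ligands with a kept circRNA. Others are marked in the text. Symbols came from the table and a table of gene names. Alternatives were other pseudocounts, filters and scalings, voom, other tests, and leaving out pools, regions or 5 libraries.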

Additional observations from a re-analysis of the deposited data

Results flagged for a closer look

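In 12 of 34 sets of 4 libraries (a gene in a region, with any read), 1 library lay far from the other 3. In each of the 12 the other 3 libraries were at 0, so the flag marks a gene found in 1 library of a region; the usual rate of about 1 set in 20 by chance assumes normally distributed values and is no chance rate here, where 121 of 192 values were 0. For EPHA3 these were PCC_10F (4.22 TPM), CA1_10F (6.09 TPM) and DG_20F (16.43 TPM). For EPHA4 they were PFC_10F (17.37 TPM), PCC_10F (8.43 TPM), PC_20M (6.38 TPM), OC_20M (2.16 TPM) and CA1_20M (1.73 TPM). EPHA6 in DG_10F (36.1 TPM), EPHA7 in PCC_10F (18.27 TPM), and EPHB1 in TC_10M (15.44 TPM) and PC_20M (2.55 TPM) were the others. The 36.1 TPM of EPHA6 stood on 6 reads and the 15.44 TPM of EPHB1 on 3.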

How the results depend on the processing

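For regions, no circRNA of the 6 genes was called with the filter; 3 were without it and 1 by the exact permutation test on log2 values. The last was the compact EPHA3 circle in OC, which passed the filter partly through its OC libraries. For hippocampus against neocortex, voom (added after seeing the data) called 2, the exonic EPHA7 circle and the EPHA5 circle found in CA1_20M alone. Both were higher in hippocampus, where voom called 1799 of all 17050 kept circRNAs higher and 94 lower, with a median log2 difference of 0.97. Both passed the filter only through a read total that came mostly or wholly from CA1_20M. These calls therefore draw on the group that let them pass. On summed genes voom called 1, EPHA7, which was lower in PC. The share of all host genes that voom called in PC is not given here. Among the 17050 kept circRNAs, voom called 6 higher and 118 lower in PC. The single call by age became 0 with limma, with limma and a correlation within pools, and with voom, and ranged from 0 to 1 over the leave-one-out pools; it was lost without 20F or 20M. The cause of these changes was not tested. The pool as a replicate block called 0 circRNAs and 0 genes in every region; with permutation within pools, the share of EPHB1 was 75.3 points higher in CB (exact p = 0.00298) and that of EPHA5 differed by −43.2 points (exact p = 0.0298), so the pairing changed no other call. With only kept circRNAs the EPHA5 share differed by −46.1 points (exact permutation p = 0.333), since 1 CB library was left, and that of EPHA7 by 70.6 points (exact permutation p = 0.125). Without each pool in turn it ranged from −49.4 to −38.6 points, that of EPHB1 from 65.2 to 82.3, and that of EPHA7, 0.261 with all pools, from −6.23 to 8.09, negative without 10M (−6.23) and 20F (−2.30). The paired t-test, added after seeing the data, made the same number of calls. Of 136 alternatives to these results, 122 kept direction and call. Many of these were counts that stayed at 0 or shares without a call, so this number says little about the results that were called. The minimum of 200 reads for shares left no library, the minimum of 16 libraries left no circRNA of these genes, and EPHB1 had no kept circRNA; edgeR was not run. Few reads limit every value: at most 186 in a library.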
